A study of Mus musculus with 20 samples.

Results

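The genes described here are those of MHC class II antigen presentation. They were chosen by name, as the rows whose Ensembl identifier maps to H2-Aa, H2-Ab1, H2-Eb1, Cd74, H2-DMa, H2-DMb1, H2-DMb2 or Ciita, and all 8 were found, each in 1 row, among the 55416 genes listed. RNA was sequenced from the quadriceps of wild-type male C57BL/6J mice aged 26 to 28 months. The mice were fasted and received 1 intramuscular injection of 50 µL, either of saline (0.9%) in the 10 muscles named Control or of a stem cell secretome in the 10 named Secretome, and the injected muscle was taken 3 h later. The secretome was a cell-free product concentrated from the culture medium of partially differentiated human embryonic stem cells, and both groups shared strain, sex, age range and the injection itself. Each library came from a piece of whole muscle, so fewer cells of a type and less RNA per cell cannot be told apart.

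MHC class II molecules are pairs of an alpha and a beta chain that carry peptides from ingested proteins to the cell surface, where CD4 T cells read them. Newly made chains bind the invariant chain, encoded by Cd74, which fills their groove and guides them to endosomes. There cathepsins trim the invariant chain to a short peptide, and the chaperone H2-DM exchanges that peptide for others. Transcription of the other genes of the set depends on Ciita, a coactivator that binds no DNA itself. It docks on factors assembled at conserved promoter elements, the X, X2 and Y boxes. Dendritic cells, B cells and macrophages express the set constitutively or after interferon gamma, while resting muscle fibres are not known as a main source.

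These elements were searched for in the promoters of the members for which a window was available. No window was available for H2-Ab1, Cd74 or Ciita. Stretches are shown for the members in which the elements were found. Promoter windows of 250 bases before to 50 bases after the annotated start were taken from RefSeq (GRCm38.p6, a different build from that of the counts), and 5 of the 8 members were matched, H2-Aa, H2-Eb1, H2-DMa, H2-DMb1 and H2-DMb2. Letters were searched on both strands after the sequences had been read. The Y box was searched as TGATTGG, which 7.82% of all 32851 windows hold. The X and X2 boxes were searched together as AACNNATGA, which 2.85% hold, and both motifs were found together in 0.307%. The symmetric element TGACGTCA, a cyclic AMP response element, is a form of the X2 box and is held by 1.79%. In the stretches below, written 5′ to 3′ on the strand of the gene, capitals mark these letters.
H2-Aa (chr17:34287842-34287932, minus strand): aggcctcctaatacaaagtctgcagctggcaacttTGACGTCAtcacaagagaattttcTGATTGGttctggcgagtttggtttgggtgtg
H2-Eb1 (chr17:34305743-34305837, plus strand): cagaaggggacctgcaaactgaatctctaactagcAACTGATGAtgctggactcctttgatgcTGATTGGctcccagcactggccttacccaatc
H2-DMb1 (chr17:34153064-34153159, plus strand): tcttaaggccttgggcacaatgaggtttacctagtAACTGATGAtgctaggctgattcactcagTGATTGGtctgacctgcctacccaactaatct
H2-DMb2 (chr17:34145093-34145188, plus strand): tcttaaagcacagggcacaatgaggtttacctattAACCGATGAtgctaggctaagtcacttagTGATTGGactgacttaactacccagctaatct

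In these 4 stretches the Y box began 50 bases before the start in H2-Aa, 61 in H2-Eb1, 63 in H2-DMb1 and 92 in H2-DMb2. It lay 16 to 20 bases downstream of the marked X2 or X and X2 letters in each of them. H2-Aa held the symmetric element in place of the longer motif. H2-DMa held none of the 3 motifs in the windows of its 2 annotated starts. Only the letters given above were searched, so elements spelled otherwise would have been missed. H2-Ob, a further class II gene that is no member, held the same arrangement with 17 bases between the motifs, while H2-Oa and H2-Eb2 held the Y box alone.

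**Figure D1:**
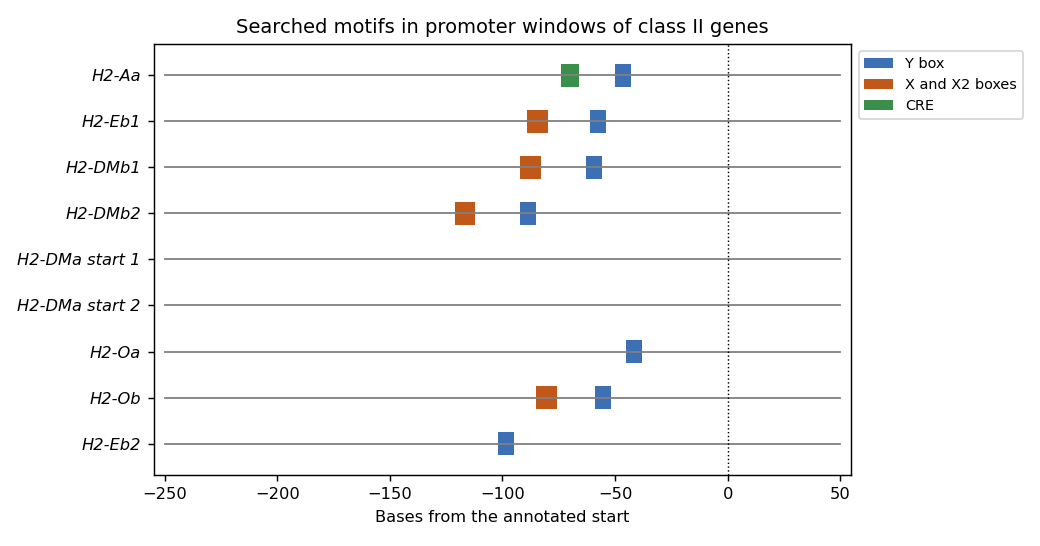
Position of the searched letters in promoter windows of class II genes, in bases from the annotated start (dotted line). Blue bars are the Y box, orange bars the X and X2 boxes and green bars the symmetric element; the motifs lie within about 120 bases of the start in the genes that hold them, and both H2-DMa windows are empty.

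Between 13286983 and 22987237 reads per library were counted on genes. Skeletal muscle markers (8 genes, among them Acta1, Ckm and Myh4) summed to between 117770 and 329610 CPM (counts scaled to library size and composition), which fits the labelled tissue, while the 8 class II genes summed to between 49.2 and 559 CPM. The library of Control 3 stood apart in immune transcripts: its class II, leukocyte, macrophage, T cell and dendritic cell marker sums were each the highest of all 20. The share of counts taken by titin (Ttn) followed the library numbers, so results are also given within libraries 6 to 15, the range that holds 5 muscles of each treatment and does not hold Control 3. The labels name no batch.

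Compared per kilobase of exon, Cd74 was the most abundant class II transcript in control muscle, at 57.6 ± 39.0 CPM per kb (mean ± SD, n = 10). H2-Eb1 followed at 17.1 ± 13.2, H2-Ab1 at 11.6 ± 8.58 and H2-Aa at 9.51 ± 7.44 CPM per kb. The H2-DM genes and the coactivator were far lower, with H2-DMb1 at 1.53 ± 0.777, H2-DMa at 1.337 ± 0.778, H2-DMb2 at 0.601 ± 0.493 and Ciita at 0.558 ± 0.391 CPM per kb. Within a muscle, the step from Cd74 to H2-Eb1 and that from H2-Aa to H2-DMb1 were seen in all 20 muscles. H2-DMb1 and H2-DMa had no stable order, with H2-DMb1 ahead in 8 of 10 control and 4 of 10 secretome-treated muscles. H2-DMb2 was ahead of Ciita in 4 control muscles and 1 secretome-treated muscle.

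Class II transcripts were on average less abundant after the secretome than after saline. The 7 members with enough counts to be tested had log2 fold changes from -1.42 to -0.92, and none passed a 5% false discovery rate. All 10 secretome-treated muscles were below the control median for each of the 8 members. Across the 14471 genes tested this was so for 3.39% of them. The control muscles were spread much more widely than the secretome-treated ones, and the groups overlapped for every member.

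The alpha and beta chains form the peptide-binding molecule itself. H2-Aa, the alpha chain of I-A, ranged from 8.66 to 107 CPM (median 35.5) after saline and from 8.04 to 25.9 CPM (median 12.3) after the secretome. Its log2 fold change was -1.27 (SE 0.365, edgeR adjusted p = 0.153). In this gene 6 controls, numbers 1, 2, 3, 4, 6 and 9, lay above every secretome-treated muscle, and the other 4 lay within their range.

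H2-Ab1, which encodes the beta chain of I-A, ranged from 6.55 to 81.8 CPM (median 28.8) after saline and from 8.18 to 22.7 CPM (median 10.5) after the secretome, with a log2 fold change of -1.24 (SE 0.358, edgeR adjusted p = 0.153). H2-Eb1, the beta chain of I-E, ranged from 4.83 to 91.0 CPM (median 33.7) and from 5.71 to 20.8 CPM (median 10.9), a log2 fold change of -1.42 (SE 0.416, edgeR adjusted p = 0.158). The lowest muscle of all was a control, Control 8, for both genes. The same 6 controls as for H2-Aa stood above the secretome-treated range. H2-Ea, the alpha chain that would pair with H2-Eb1, was listed at 0 in all 20 muscles. C57BL/6 mice are known to carry a haplotype with no working copy of it.

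Cd74, the invariant chain, ranged from 24.4 to 247 CPM (median 91.4) after saline and from 24.6 to 68.8 CPM (median 36.1) after the secretome. Its log2 fold change was -1.18 (SE 0.336, edgeR adjusted p = 0.153). Here too the 6 controls numbered 1, 2, 3, 4, 6 and 9 exceeded the highest secretome-treated muscle, while Controls 8 and 10, at 24.4 and 35.2 CPM, were at or below the secretome median.

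H2-DMa and H2-DMb1 encode the chains of the peptide exchange chaperone. H2-DMa ranged from 2.15 to 10.7 CPM (median 4.29) after saline and from 1.21 to 3.51 CPM (median 2.06) after the secretome, with a log2 fold change of -0.92 (SE 0.274, edgeR adjusted p = 0.158). H2-DMb1 ranged from 0.992 to 5.46 CPM (median 2.51) and from 0.756 to 2.27 CPM (median 1.08), a log2 fold change of -0.99 (SE 0.284, edgeR adjusted p = 0.151). In both, the 6 controls above all secretome-treated muscles were again numbers 1, 2, 3, 4, 6 and 9. Below every control lay 6 secretome-treated muscles for H2-DMa and 5 for H2-DMb1, against 0 or 1 for the alpha and beta chains and Cd74.

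H2-DMb2, a second beta chain of H2-DM, had only 0 to 54 counts in a library and did not reach the count filter of the main comparison. It ranged from 0.0580 to 2.51 CPM (median 0.858) after saline and from 0 to 0.469 CPM (median 0.232) after the secretome. The 2 secretome-treated muscles at 0, numbers 4 and 9, allow up to 0.187 and 0.162 CPM, the value of 3 counts. The controls above the secretome-treated range were 7, the same 6 and Control 7, and Control 6 rather than Control 3 was the highest. Without the filter, edgeR gave a log2 fold change of -2.12 (SE 0.533, adjusted p = 0.152). Counts of the 2 beta chain genes may be partly shared: their longest transcripts (GENCODE M21) were identical at 94.6% of 1219 aligned bases, and 5.4% of the 150-base words of H2-DMb2 also occur in H2-DMb1. How reads that fit both were counted is not given in the sources used here.

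Ciita, the coactivator, ranged from 1.39 to 13.05 CPM (median 4.42) after saline and from 1.46 to 3.88 CPM (median 2.18) after the secretome. The log2 fold change was -1.17 (SE 0.333, edgeR adjusted p = 0.151), close to that of its target genes. The 6 controls above all secretome-treated muscles were numbers 1, 3, 4, 6, 7 and 9, so Control 7 took the place that Control 2 held in the chain genes. Control 2 had 2.67 CPM of Ciita beside 101 CPM of Cd74, and Control 7 had 4.59 beside 54.9.

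**Figure D2:**
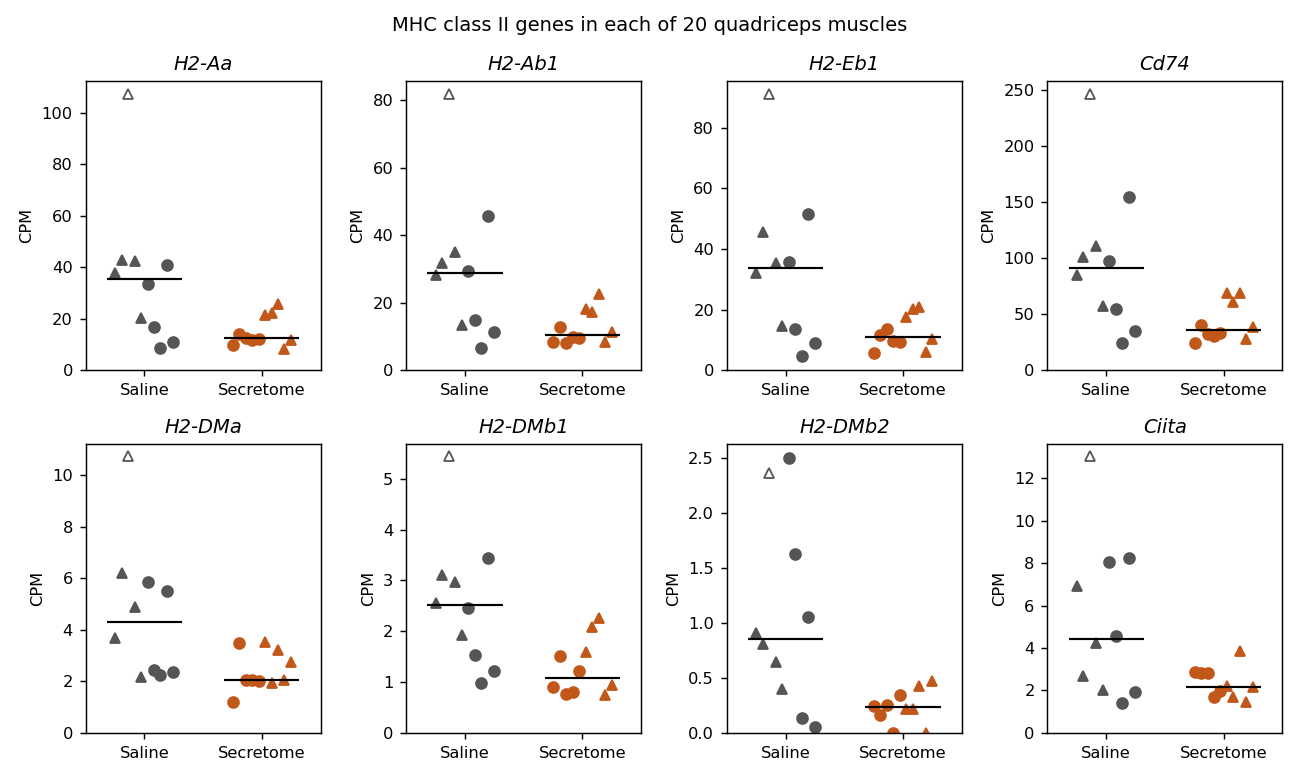
CPM of the 8 class II genes in each muscle, with a linear axis from 0 in each panel; horizontal lines are group medians (n = 10 muscles each), circles are libraries 6 to 15, triangles the other libraries, and the open triangle is Control 3. Control 3 is the highest muscle in 7 of the 8 panels, and in each panel all 10 secretome-treated muscles lie below the control median.

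At an unadjusted p under 0.05, 7 of the 7 members tested were lower (p from 0.00191 to 0.00279 in edgeR's quasi-likelihood test), where 9.21% of all tested genes were. None passed the 5% false discovery rate, which 1 gene or 0.00691% of those tested did, Plxnb2 (a receptor for semaphorins; named after its value was seen). The members share muscles and vary together, so the 7 are not separate pieces of evidence. The median log2 fold change was -1.18 for the 7 members and -0.04 for all tested genes. DESeq2 called 0.843% of its genes lower at the same rate, and among them were Ciita (log2 fold change -1.15, adjusted p = 0.0345) and H2-DMb2 (-2.15, adjusted p = 0.0152), while the other 6 members had DESeq2 adjusted p from 0.0506 to 0.0576.

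Part of the size of the difference lay in 1 muscle. Control 3 had 2.22 (H2-DMb1) to 3.22 (H2-Aa) times the median of the other controls, and was the highest muscle for every member except H2-DMb2. Without it the log2 fold changes of the 7 tested members ranged from -1.11 to -0.69, with edgeR adjusted p from 0.304 to 0.317. All 7 were still lower at an unadjusted p under 0.05, against 6.45% of the genes tested. The DESeq2 calls were lost without it, with adjusted p = 0.152 for Ciita and 0.0749 for H2-DMb2, and in that fit 0.253% of genes were called lower.

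Within libraries 6 to 15 the class II transcripts were also lower on average, with 5 muscles of each treatment. H2-Ab1 had 29.4, 14.9, 6.55, 45.7 and 11.4 CPM in Controls 6 to 10 and 8.26, 12.7, 8.18, 9.73 and 9.44 CPM in Secretome 1 to 5. Cd74 had 97.5, 54.9, 24.4, 154 and 35.2 CPM in these controls and 24.6, 40.3, 32.7, 30.9 and 33.2 CPM after the secretome. Controls 6, 7 and 9 stood above all 5 secretome-treated muscles for both genes, and Control 8 stood below all 5.

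The log2 fold changes of the 7 tested members in this range were from -1.18 to -0.76, and 6 of them, all but H2-Eb1, had an unadjusted p under 0.05 in edgeR (0.0268 to 0.0490). Of all genes tested in the range, 4.92% were lower at that threshold. None of the members passed the false discovery rate (adjusted p from 0.470 to 0.541), and 0% of all genes did, with 1439 at an unadjusted p under 0.05 and 37 past the rate in DESeq2. The count of 6 rested on single muscles: it was 0 without Control 6, Control 9, Secretome 1 or Secretome 3, 1 without Secretome 4 and 2 without Secretome 5. The sizes rested most on Control 9, without which the log2 fold changes ranged from -0.71 to -0.53, with H2-Eb1 at -0.65 instead of -1.18.

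In each treatment the median class II level was lower in libraries 6 to 15 than in the others. The 8 genes summed to a median of 234 CPM in Controls 1 to 5 and 110 CPM in Controls 6 to 10, and to 69.6 CPM in Secretome 1 to 5 and 126 CPM in Secretome 6 to 10. Markers of other cells differed between the same muscles. Fibroblast markers summed to medians of 726 and 288 CPM in these controls and 279 and 512 CPM in these secretome-treated muscles. In the same order, macrophage markers had medians of 156, 113, 75.3 and 148 CPM. Muscle markers went the other way, with 146320, 305100, 302030 and 246160 CPM. The part of cell content in the class II levels of the ranges was not tested. The difference of the secretome effect between the ranges was between -0.48 (H2-DMb2, SE 1.12) and 0.60 (H2-Aa, SE 0.623) on the log2 scale in edgeR. All 8 members were tested for it and none passed (adjusted p from 0.779 to 0.998), where 7 genes or 0.0451% of those tested did. Without Control 3 the difference was 0.11 for H2-Aa and -1.05 for H2-DMb2, and for Cd74 it went from -0.0072 to -0.45. For Ciita, H2-Ab1, H2-Eb1, H2-DMa and H2-DMb1 the difference turned from positive (0.12 to 0.34) to negative (-0.37 to -0.11). Standard errors of this size leave room for differences as large as the effect itself.

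**Figure D3:**
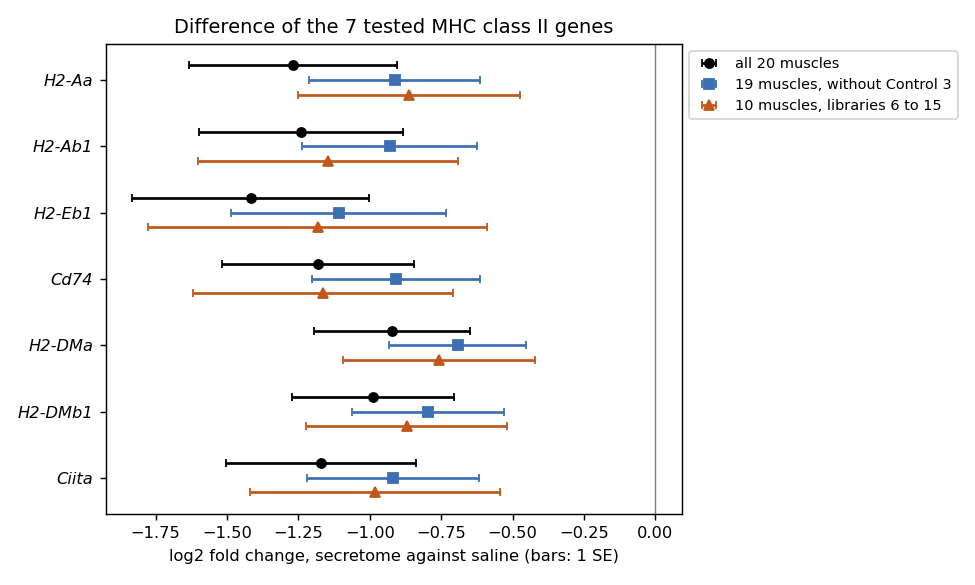
Log2 fold change of secretome against saline for the 7 tested class II genes (bars, 1 standard error of edgeR's fit), in all 20 muscles (black circles), without Control 3 (blue squares) and within libraries 6 to 15 (orange triangles). Every estimate is below 0, between -1.42 and -0.69, and leaving out Control 3 moves each of them toward 0.

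Ratios within a muscle ask whether the members changed unequally. The log2 ratio of Cd74 to H2-Ab1 was 1.74 ± 0.161 after saline and 1.75 ± 0.137 after the secretome (mean ± SD, 10 muscles each), a difference of 0.0020 (two-sided permutation test with 100000 resamples, p = 0.974). The ratio of H2-Aa to H2-Ab1 differed by -0.02 (permutation p = 0.791), that of H2-Eb1 to H2-Ab1 by -0.10 (permutation p = 0.477) and that of H2-DMa to H2-Ab1 by 0.22 (permutation p = 0.281). The SDs of the first 3 ratios were at most 0.347 log2 units, over muscles whose Cd74 ranged from 24.4 to 247 CPM.

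Set against Ptprc, which encodes the leukocyte surface protein CD45, the ratios were far more variable. The log2 ratio of H2-Ab1 to Ptprc was 0.94 ± 1.06 after saline and 0.54 ± 0.715 after the secretome, a difference of -0.41 (permutation p = 0.341). For Cd74 to Ptprc it was 2.69 ± 1.03 and 2.28 ± 0.812, a difference of -0.40 (permutation p = 0.349). Over the 6 ratios the adjusted p ranged from 0.699 to 0.974. Within libraries 6 to 15, H2-Ab1 to Ptprc differed by 0.0038 and Cd74 to Ptprc by -0.04 (two-sided exact permutation tests, p = 1 and 0.937). In the comparison of all 20 muscles, the SD within each treatment was larger than the difference for both ratios to Ptprc.

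**Figure D4:**
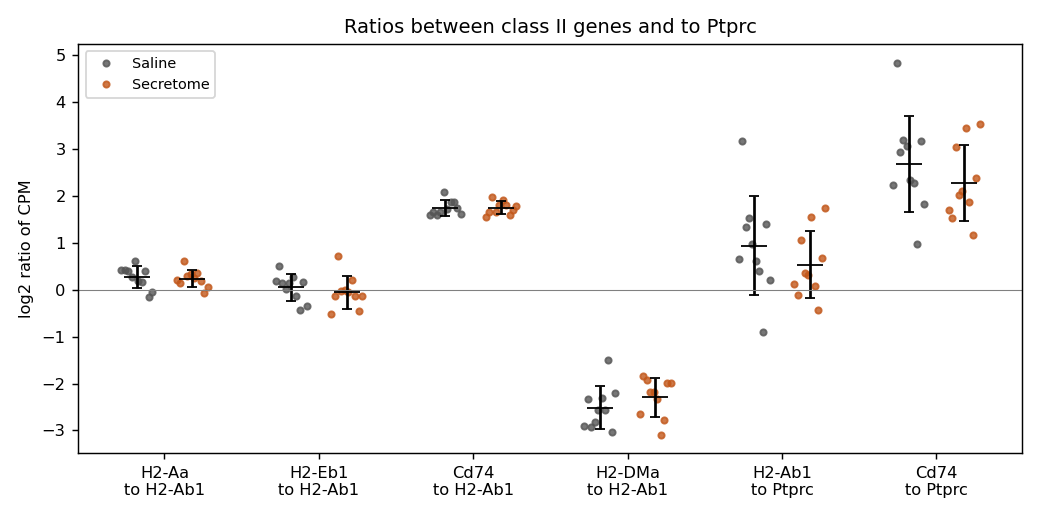
Log2 ratio of CPM (prior count 2) between class II genes and to Ptprc, 1 point per muscle, grey for saline and orange for secretome (n = 10 each), with the mean and SD in black. The first 3 ratios are tight and overlap almost fully between the treatments, and the ratios to Ptprc span several log2 units in both.

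The members varied together from muscle to muscle. After the mean of each treatment was removed, Pearson correlations of log2 CPM over the 20 muscles were between 0.659 and 0.985 for the 21 pairs of tested members, with a median of 0.863. Without Control 3 they were between 0.531 and 0.980. These describe libraries that share depth and cell content, and no p is given for them.

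By the same measure, the other tested genes most like the mean of the members included Unc93b1 (r = 0.961), Fgd2 (0.890), Plcb2 (0.849), Cfl1 (0.845), Tmem106a (0.844), Cotl1 (0.840), Arhgap45 (0.839), Hk3 (0.838) and Efhd2 (0.832). Unc93b1 carries nucleic acid-sensing Toll-like receptors to endosomes, Fgd2 is a guanine nucleotide exchange factor, and Cfl1 and Cotl1 encode actin-binding proteins. Unc93b1 and Fgd2 were also the first 2 without Control 3 (r = 0.945 and 0.870), and 4 of the 10 most alike were among the first 10 there. Csf1r, the receptor that macrophages need, stood at rank 30 of 14464 genes (r = 0.789) and Ptprc at rank 1386 (r = 0.471).

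The genes upstream of the members showed no difference of similar size. Of 7 factors that bind the class II promoters (the RFX subunits, the NF-Y subunits and Creb1), 0 were lower and 1 was higher at an unadjusted p under 0.05, where 6.52% of all tested genes were higher. Nfyb, a subunit of the Y box factor, had 15.3 to 21.7 CPM (median 18.3) after saline and 18.2 to 26.1 CPM (median 20.01) after the secretome, with a log2 fold change of 0.21 (SE 0.0876, edgeR adjusted p = 0.266). Nfyc differed by 0.19 (SE 0.0977, edgeR adjusted p = 0.346), with groups that overlapped.

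Interferon gamma induces Ciita through its receptor, the kinases Jak1 and Jak2, and transcription factors. The median log2 fold change of the 6 genes of this route was 0.04, and 1 of them, Jak2, was higher at an unadjusted p under 0.05. Jak2 had a log2 fold change of 0.30 (SE 0.118, edgeR adjusted p = 0.237).

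Among genes that prepare peptides and cleave the invariant chain, 8 of 8 had a log2 fold change below 0, as did 8084 of all 14471 genes, and 2 were lower at an unadjusted p under 0.05, where 9.21% of all genes were. Ctss encodes cathepsin S, the protease that completes invariant chain cleavage. It ranged from 4.36 to 22.3 CPM (median 7.22) after saline and from 2.06 to 9.26 CPM (median 3.20) after the secretome, with a log2 fold change of -1.01 (SE 0.325, edgeR adjusted p = 0.174). Ctsz, a lysosomal carboxypeptidase, had a log2 fold change of -0.40 (SE 0.119, edgeR adjusted p = 0.158). The broadly expressed cathepsins Ctsb and Ctsd differed by -0.13 and -0.04.

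Of 6 genes for class II turnover and costimulation, 4 were tested and 0 had an unadjusted p under 0.05. Marchf8, a ubiquitin ligase that removes class II from the surface, differed by 0.16 (edgeR adjusted p = 0.323), and Cd83, which opposes that removal, by -0.63 (edgeR adjusted p = 0.365). Cd80 and Cd40 were too low to test. So were H2-Oa and H2-Ob, the chains of the H2-DM inhibitor, and H2-Eb2. H2-Ob reached 1.95 CPM in Control 6 and at most 0.438 CPM after the secretome, while H2-Oa was at most 0.338 CPM and H2-Eb2 at most 0.464 CPM anywhere.

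Markers of macrophages, which can carry class II molecules, were also lower on average after the secretome. Of 11 macrophage markers, 11 had a log2 fold change below 0 and 6 were lower at an unadjusted p under 0.05, with a median of -0.58. Of all 14471 genes tested, 8084 were below 0 and 9.21% were lower at that threshold. Their sum ranged from 94.7 to 274 CPM (median 140) after saline and from 62.2 to 209 CPM (median 87.2) after the secretome. Csf1r had a log2 fold change of -0.76 (SE 0.216, edgeR adjusted p = 0.151) and Adgre1, which encodes F4/80, one of -0.82 (SE 0.240, edgeR adjusted p = 0.153). Without Control 3, 9 of the 11 were below 0 and 5 were lower at that threshold (6.45% of all genes), and within libraries 6 to 15 the numbers were 11 and 7 (4.92% of all genes were lower). The part of macrophage content in the class II differences was not tested.

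Leukocyte markers summed to 19.4 to 87.7 CPM (median 33.8) after saline and 12.4 to 70.0 CPM (median 18.7) after the secretome. Of the 5 markers, 4 had a log2 fold change below 0, as did 8084 of all 14471 genes. Cd53 went the other way, with a log2 fold change of 0.33 (edgeR adjusted p = 0.748). At an unadjusted p under 0.05, 2 of 5, Coro1a and Laptm5, were lower, where 9.21% of all genes were. Coro1a had a log2 fold change of -0.98 (SE 0.350) and Laptm5 one of -0.69 (SE 0.251; edgeR adjusted p = 0.205 and 0.207). Ptprc had one of -0.47 (SE 0.394, edgeR adjusted p = 0.568) in all muscles and of -0.78 (SE 0.284, edgeR adjusted p = 0.452) within libraries 6 to 15. Secretome 8 had 30.5 CPM of Ptprc, next to 32.1 in Control 3, and 68.8 CPM of Cd74, against 247 there.

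Dendritic cell markers gave a mixed picture, with sums of 15.5 to 35.9 CPM after saline and 12.4 to 24.5 CPM after the secretome. Of 8, only Itgax, Zbtb46 and Cd209a had enough counts to be tested. Itgax, which encodes CD11c and is also made by some macrophages, had a log2 fold change of -1.35 (SE 0.383, edgeR adjusted p = 0.151), and of -0.85 without Control 3, where 9.56 CPM stood against at most 2.60 in the other controls. Cd209a differed by -0.14 and Zbtb46, which endothelium also expresses, by 0.01. Flt3, Xcr1 and Ccr7 stayed under 1 CPM in every muscle. The T cell markers summed to at most 7.09 CPM, in Control 3, and 0 of 6 could be tested.

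B cell markers differed mostly in a few controls. Ighm, the immunoglobulin M heavy chain and the one B cell marker of 7 that was tested, ranged from 71.8 to 556 CPM (median 160) after saline and from 44.9 to 200 CPM (median 121) after the secretome, with a log2 fold change of -0.98 (SE 0.357, edgeR adjusted p = 0.213). Controls 6, 1 and 7 held the most Ighm, and Controls 6 and 7 were also among the 3 highest muscles for H2-DMb2. Control 9, second highest for Cd74 and H2-Ab1, had 71.8 CPM of Ighm, the least of the controls. All 7 B cell markers summed to 72.9 to 564 CPM after saline and 46.0 to 201 CPM after the secretome, nearly all of it Ighm.

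In all 20 muscles, neutrophil, endothelial, fibroblast and muscle fibre markers had 0 genes lower and 0 higher at an unadjusted p under 0.05. Of all tested genes, 9.21% were lower and 6.52% higher. The smallest p of these lists belonged to S100a9 and S100a8 (log2 fold changes 1.37 and 1.33), Emcn and Tie1 (-0.14 and -0.13), Pdgfra and Col1a1 (-0.36 and -0.73), and Myh4 and Acta1 (0.35 and 0.16). Their edgeR adjusted p ranged from 0.323 to 0.705. Within libraries 6 to 15, 1 endothelial marker was lower at that threshold and 1 fibroblast marker higher. Of all 14469 genes tested there, 712 were lower and 727 higher. Without Control 3, 3 of the 4 neutrophil markers tested were higher at an unadjusted p under 0.05, where 4.86% of all genes were. The 4 had a median log2 fold change of 1.98. S100a9 reached 16.7 and 22.8 CPM in Secretome 7 and 8, and at most 3.17 CPM in the other secretome-treated muscles. For S100a8 these values were 9.63, 18.1 and 4.19 CPM. With all controls kept, the secretome median was below the saline median for S100a8 and S100a9 and above it for the other markers tested. Within libraries 6 to 15 the neutrophil markers had a median log2 fold change of 0.06, with 0 lower or higher at that threshold.

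**Figure D5:**
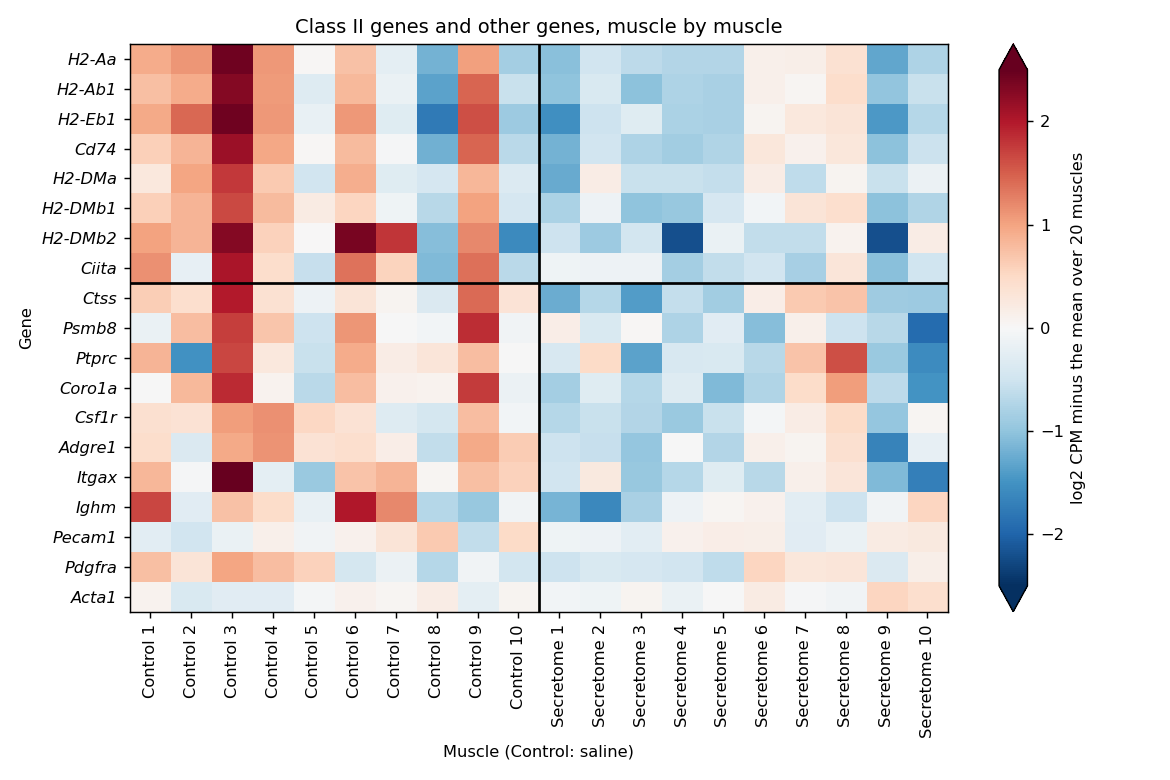
Log2 CPM of the 8 class II genes (above the line) and of 11 other genes, each as the difference from its own mean over 20 muscles, with saline muscles left and secretome-treated muscles right of the vertical line; the colour scale ends at 2.5 log2 units. Of the class II rows, 7 are highest in Control 3 and H2-DMb2 is highest in Control 6. Controls 1, 2, 4, 6 and 9 are also high in most of these rows. Ctss and Csf1r follow the pattern more closely than Ptprc, Ighm or the endothelial marker Pecam1.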

How the data were processed

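The authors sequenced stranded, ribosomal RNA-depleted total RNA in pairs, and deposited raw counts of reads per gene for 20 muscles. Their processing notes name cutadapt 1.16, STAR 2.7.9a, featureCounts 1.6.3, DESeq2 1.34.0 and GRCm39 (mm39). The extract protocol speaks of myotubes, while the tissue label is quadriceps. Symbols and exon lengths came from GENCODE M21. Every column was matched to a sample; depth ranged from 13286983 to 22987237 counts.

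Counts were filtered with filterByExpr (14471 genes kept) and TMM-normalized in edgeR 4.0.16 (R 4.3.3). The 2 treatments were tested with its robust quasi-likelihood F-test, Benjamini-Hochberg adjusted at a 5% false discovery rate, over all genes. The difference between library ranges was a contrast of 4 groups. Ratios used log2 CPM with a prior count of 2 and permutation tests, adjusted over 6 ratios. The tests set the difference between treatments against the spread between muscles. The alternatives were DESeq2 1.42.0, RLE scaling, no filter, the replicate number as a block, voom (limma 3.58.1), a library range term and each muscle left out. On simulated counts, 166 of 200 genes given a 2-fold change were recovered with 10 muscles a group and 117 with 5. Unchanged genes called were 9 and 7. The 200 were drawn at random from expressed genes, so recovery of the class II members themselves was not measured.

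Genes named are all members, the 2 with the smallest p of each other list, H2-Oa, H2-Ob and Ptprc. Genes near 0 and the 10 most like the members are named too. Cd53, Ctsb, Ctsd, Pecam1, Zbtb46 and MHC class I genes beyond the first 2 were named after their values were seen. Some genes that this rule names are not reported here. Members and lists were chosen with earlier results of these data known. Muscles with the same number were checked for pairing: their deviations from the group means correlated at -0.24 to 0.221, with 2 of 10 pairs over 0.1, so they were not treated as pairs.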

Additional observations from a re-analysis of the deposited data

How the results depend on the processing

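No alternative changed the direction of a member in all 20 muscles or within libraries 6 to 15. Of the log2 fold changes of the 7 members tested in all 20 muscles, 188 under alternatives kept their side of the 5% false discovery rate and 1, Ciita in DESeq2, passed it; H2-DMb2, which the main filter leaves out, passed it in DESeq2 as well. With voom the 7 were smaller, from -0.82 to -0.63. The number of members lower at an unadjusted p under 0.05 stayed at 7 with each muscle left out in turn and was 6 with voom; within libraries 6 to 15 it ranged from 0 to 7. Over all genes, the 1 gene past the false discovery rate in all 20 muscles became 216 with DESeq2, 69 with DESeq2 without Control 3 (added after seeing the data), 3 with voom and 0 with the replicate number as a block, and ranged from 0 (without Control 6, Control 9 or Secretome 1, 4, 5, 6 or 7) to 15 (without Control 5). In the block fit the 7 members had log2 fold changes from -1.17 to -0.80 and adjusted p from 0.237 to 0.329; the muscles share only a number. Within libraries 6 to 15 the 0 genes became 37 with DESeq2 and 11 without a filter, and ranged from 0 to 2 (without Control 8). The 7 genes for the difference between ranges became 2 with RLE scaling and 2 without Control 3. The difference in the log2 ratio of Cd74 to H2-Ab1, near 0, became -0.015 without Control 3. The cause of these changes was not tested. At 0 to 54 counts, depth limits what can be said of H2-DMb2.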

Other observations

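MHC class I genes, whose products present peptides made inside the cell, were also lower on average after the secretome, and none passed the 5% false discovery rate. Of 9 genes for class I chains, peptide supply and their coactivator, 9 had a log2 fold change below 0 and 7 were lower at an unadjusted p under 0.05, where 9.21% of all genes were, with a median of -0.77 beside -1.18 for the class II members. Psmb8, a subunit of the immunoproteasome, ranged from 2.04 to 10.99 CPM (median 3.90) after saline and from 0.703 to 3.34 CPM (median 2.14) after the secretome, with a log2 fold change of -1.22 (SE 0.314, edgeR adjusted p = 0.124). Psmb9 of the same complex had one of -1.04 (SE 0.293, edgeR adjusted p = 0.148). H2-K1 and H2-D1, the classical heavy chains, differed by -0.54 and -0.46, and Nlrc5, the class I counterpart of Ciita, by -0.77 (edgeR adjusted p = 0.321). Without Control 3 the median was -0.45, with 7 of the 9 again lower at that threshold (6.45% of all genes). Within libraries 6 to 15, 8 of the 9 were below 0 and 4 were lower at that threshold (4.92% of all genes).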
